A study of Mus musculus with 16 samples.

Results

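Cornea macrophages and the microglia of retina and brain were compared, as one resident set, with Ly6C+ monocytes of the bone marrow, by bulk RNA sequencing of sorted cells. All 16 libraries of the series entered the comparison, 4 per population, so there were 12 resident and 4 monocyte libraries. All came from C57BL/6 mice of 8 to 10 weeks, with no transgene or treatment in the labels. The cornea gate was CD45, CD11b, CD64 and F4/80 (all positive) and the gate of both microglia CD45 and CD11b; monocytes were positive for CD45, CD11b, CD115 and Ly6C. Each cornea and retinal library pooled 10 mice. For brain and marrow libraries the pool size was treated as unknown, because their descriptions name another population. Genes were kept where the mean of the 3 resident populations differed from monocytes and each of the 3 pairs pointed the same way. From these, a resident core and a set lost from the monocyte state were drawn, requiring an adjusted p under 0.05 and at least a 2-fold difference in each pair. Of 15754 gene entries tested, 1517 (9.63%) formed the core and 1147 (7.28%) were lost.

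Monocytes leave the marrow as short-lived circulating cells that can enter tissues, whereas most microglia and part of the macrophages of other organs descend from embryonic precursors and renew themselves in place. Resident macrophages clear dying cells and debris, degrade them in lysosomes, and respond to growth factors such as CSF1 and TGF-beta from their tissue. Their identity is set by PU.1 together with other factors such as c-Maf. A marrow monocyte still carries products of its granulocyte-monocyte precursors, including granule proteins and cell cycle genes.

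Library totals ranged from 8.68 to 21.76 M reads counted to genes. Levels are given as CPM, counts scaled to library total and TMM factor, as mean ± SD of 4 libraries where an error is printed. Where 3 levels are set against another, they are the means of cornea, retina and brain, in that order, against the monocyte mean. Differences are log2 fold changes of resident over monocyte cells from the quasi-likelihood test of edgeR, and adjusted p-values are Benjamini-Hochberg values over every gene entry tested. Nothing in the labels says that libraries of a population came from separate animals in every case, and 3 pairs of libraries share a title number, so the p-values measure the spread between libraries, which may be partly technical. In bulk samples, fewer cells of a type and less RNA per cell cannot be told apart.

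Markers of other cell types differed between the sorts. The summed level of 25 neutrophil granule markers was 1916 to 6228 CPM in monocyte libraries, 116 to 192 in cornea, 2.78 to 4.31 in retinal and 0.893 to 20.9 in brain libraries. Of these markers, 25 had counts in monocytes, 15 in cornea, 10 in retina and 12 in brain, and Elane, Retnlg, Ms4a3 and Fcnb were at 0 in all 12 resident libraries. Summed erythroid markers (15 genes) reached 404 to 2621 CPM in monocytes, against 8.73 to 25.4, 19.9 to 57.0 and 16.5 to 62.7 CPM in cornea, retina and brain, with Slc4a1 at 0 in every resident library. Cornea libraries held 2050.0 to 3202 CPM of 12 keratocyte and 319.7 to 1853 CPM of 14 corneal epithelium markers. Retinal libraries held 1239 to 9443 CPM of 19 photoreceptor markers, against 873 to 1022 in cornea, 220.0 to 269 in brain and 282 to 333 in monocyte libraries. All 19 had counts in retina, but 10 in cornea, 8 in brain and 8 in monocytes, so the sums there come from part of the list. Brain libraries held 253 to 272 CPM of 9 astrocyte markers, retinal 90.8 to 156, cornea 47.3 to 109 and monocyte libraries 1.99 to 3.84. Muller glia markers (10 genes) summed to 20930 to 30290 CPM in cornea and 2667 to 3506 in monocytes. Retinal and brain libraries held 2117 to 3862 and 905 to 979 CPM of them. The core held 2 of 7 tested astrocyte, 2 of 6 endothelial, 2 of 10 Muller glia and 2 of 11 corneal epithelium markers. It also held 2 of 11 dendritic, 1 of 5 oligodendrocyte and 1 of 7 progenitor markers. It held 0 of 18 photoreceptor, 0 of 11 keratocyte, 0 of 6 neuron and 0 of 5 platelet markers. Among all tested genes 9.63% were core. Whether such transcripts came from other cells was not tested.

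**Figure D1:**
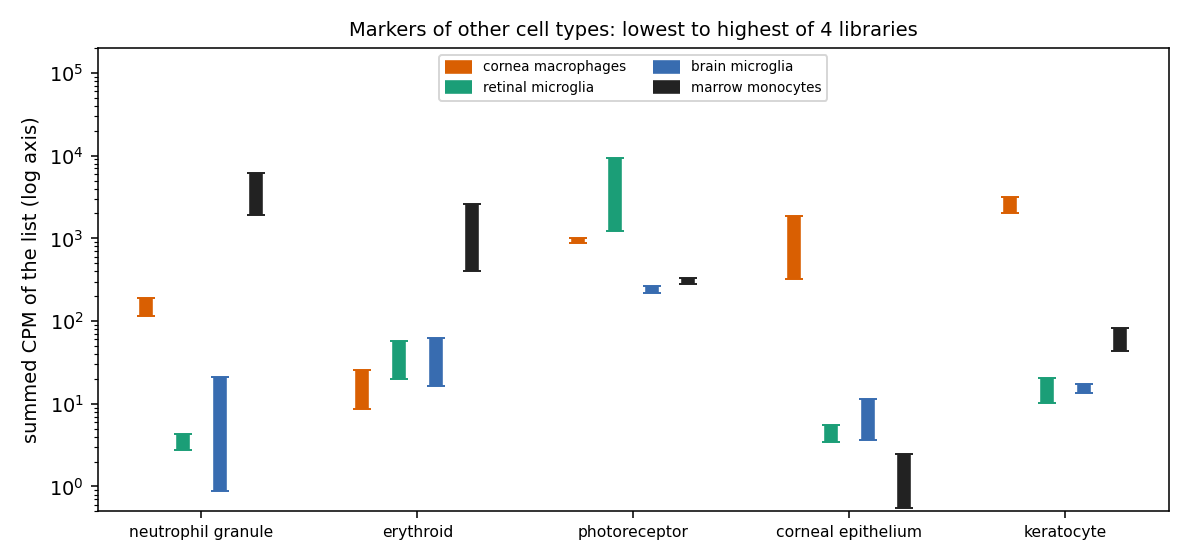
Summed CPM (log axis) of 5 marker lists of other cell types; each bar spans the lowest to the highest of the 4 libraries of a population. Granule markers in monocytes (1916 to 6228 CPM) and keratocyte markers in cornea macrophages (2050.0 to 3202 CPM) lay above the other populations.

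Against monocytes, 4629 genes were higher in the mean of the residents and 4670 lower, 29.4% and 29.6% of the 15754 tested. The rule of 1 direction in all 3 pairs kept 3765 of the higher genes (23.9% of tested) and 3665 of the lower (23.3%). The core of 1517 genes made up 9.63% of tested genes and the lost set of 1147 genes 7.28%. The 3 pairs share the same 4 monocyte libraries, so a deviation of those libraries enters every pair. Over all tested genes the median log2 difference was 0.05. Core genes had a median of 3.91, or 3.77 with genes absent from monocytes set to their lower bound, and lost genes one of -2.98; the selection itself sets these values. TMM factors were 0.661 to 0.705 in the cornea libraries and 1.068 to 1.25 in all others. Cornea levels relative to the other populations therefore rest on this scaling. With total counts only, in place of TMM, the median over all genes moved to -0.13, and the split became 1234 core and 1504 lost genes.

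All 12 resident libraries lay above all 4 monocyte libraries for 1487 genes (9.44%) and below them for 2062 (13.1%). Of the core 1096 genes and of the lost set 1121 genes were free of overlap. Sequencing lane was uneven across populations, since lane 2 held every retinal library and lane 3 every brain library. A fit within 1 lane therefore compared 2 resident populations with monocytes, and its sets had to pass in 2 pairs, not 3. Within lane 3, 1 cornea library and the 4 brain libraries against 3 monocyte libraries gave 1431 core and 1296 lost genes, of which 1156 and 1009 were shared with the full sets. Within lane 2 (added after seeing the data), cornea and retina against 1 monocyte library gave 1213 and 1019, with 1007 and 841 shared; the lone monocyte library, like the lone cornea library of lane 3, was assumed to vary like the others. Of the named genes, 20 left their set within lane 2 and 13 within lane 3, as given beside each. Values with monocyte libraries 3 and 4 alone, also added after seeing the data, leave out monocyte libraries 1 and 2. Those 2 held most of the granule transcripts Ngp, S100a8 and Retnlg and of the haemoglobin transcript Hbb-bs.

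Resident cells shared the core genes at unequal levels. The 3 resident means lay within 2-fold of each other for 451 core genes and more than 8-fold apart for 329. The highest level was in cornea macrophages for 566 core genes, in brain microglia for 544 and in retinal microglia for 407. The pair nearest to the 2-fold limit was that of the cornea for 763 core genes, against 396 for brain and 358 for retina. These counts by tissue rest on the TMM factors given above. Monocytes were under 1 CPM for 841 core genes, and 235 had no count in any monocyte library. Of the lost genes, 190 were under 1 CPM in each resident population, and 15 had no count in any resident library.

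Ranked by the smallest of the 3 differences, the core was led by Pmepa1, which encodes an inhibitor of TGF-beta signalling. For Pmepa1, cornea libraries 1 to 4 held 232, 196, 230.1 and 218 CPM, retinal libraries 328, 323, 449.7 and 273, brain libraries 379, 458, 394 and 451 and monocyte libraries 0.181, 0.0997, 0 and 0. Every resident library exceeded every monocyte library by far, and monocytes held 5 counts in all. The difference was 11.70 (SE 0.33, edgeR adjusted p = 1.69e-14), with 11.17, 11.82 and 12.11 in the cornea, retina and brain pairs. Pmp22, a membrane protein best known from myelin, followed with 1975 ± 176 CPM in cornea, 649.6 ± 118 in retina, 482 ± 28.0 in brain and 0.158 ± 0.316 in monocytes. Its difference was 11.78 (SE 0.45, edgeR adjusted p = 6.10e-13). Il1a, the alarm cytokine interleukin-1 alpha, had 2 counts over the monocyte libraries, and pooled residents exceeded them by a ratio of 15972 (95% counting interval 4421 to 131882, counting error only). Its level was 1755 ± 334 CPM in cornea but 86.1 ± 20.9 and 89.3 ± 33.9 in retina and brain.

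Rapgef5, Rnf180 and S1pr1 also had 2 counts each over the 4 monocyte libraries. S1pr1, the sphingosine-1-phosphate receptor that guides cell exit from tissues, stood at 120.2, 41.6 and 76.1 CPM in cornea, retina and brain. Rapgef5, an exchange factor for Rap proteins, stood at 101, 59.9 and 121 CPM, and Rnf180, a ubiquitin ligase, at 162, 52.8 and 77.6 CPM. Fcrls, an Fc receptor-like gene widely used to mark microglia, was not restricted to them: cornea libraries 1 to 4 held 1001, 1037, 1077 and 1164 CPM, retinal libraries 428, 754, 684 and 499, brain libraries 2971, 3036, 3939.6 and 3864 and monocyte libraries 0.226, 0.698, 0.274 and 0.994. Brain libraries were highest, retinal libraries lowest among residents, and none overlapped with monocytes (difference 11.26 with SE 0.35 and edgeR adjusted p = 5.53e-14).

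Sparc, a secreted matrix protein, had 418 ± 117 CPM in cornea, 3458 ± 843 in retina, 4896 ± 451 in brain and 0.621 ± 0.321 in monocytes (difference 11.57 with SE 0.38 and edgeR adjusted p = 1.27e-13). The transcription factor Bhlhe41 stood at 88.9, 384 and 213 against 0.136 CPM. Basp1, a membrane-bound signalling protein, stood at 560.3, 182 and 237 against 0.407 CPM, and Hpgds, the haematopoietic prostaglandin D synthase, at 1077, 432 and 489 against 0.758 CPM. Mmp2, a gelatinase, stood at 77.5, 55.6 and 71.7 against 0.202 CPM. Keratocytes also make Sparc and Mmp2, and cornea libraries carried the keratocyte transcripts given above; their part in the cornea level was not tested. On build GRCm38 (GENCODE vM21), Pmepa1 lies on chromosome 2, 173224458 to 173276533, Pmp22 on chromosome 11, 63128982 to 63159547, Il1a on chromosome 2, 129299610 to 129309972 and Fcrls on chromosome 3, 87250758 to 87263738.

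**Figure D2:**
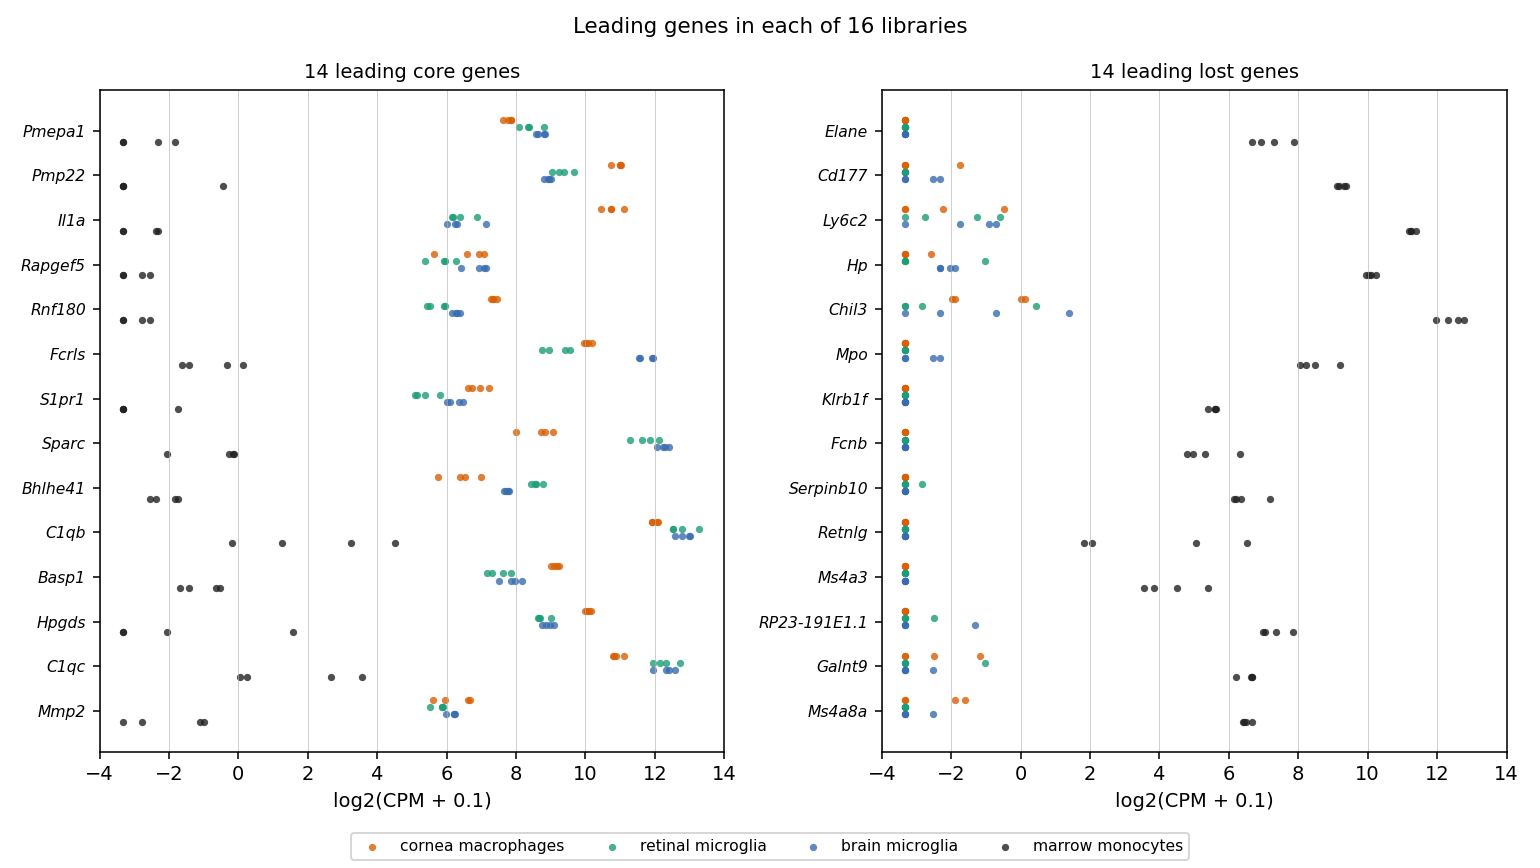
Level of 14 leading core genes (left) and 14 leading lost genes (right) in each library, as log2(CPM + 0.1); each point is 1 of 16 libraries, coloured by population. Resident and monocyte points do not overlap for any gene, which the choice of these genes required; monocyte libraries spread widely for Retnlg, C1qb and C1qc.

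A few core genes reached almost the same level in the 3 tissues. The tetraspanin Cd82 was the most even of those with at least 20 CPM: cornea libraries 1 to 4 held 219, 221, 188 and 277 CPM, retinal libraries 211, 186, 309.8 and 199.7, brain libraries 206, 243, 224 and 255 and monocyte libraries 31.3, 39.5, 27.2 and 42.5. The 3 pair differences were 2.69, 2.69 and 2.73. Tnfrsf11a, which encodes RANK, the receptor through which RANKL drives osteoclast formation, stood at 168, 169 and 179.6 against 25.9 CPM. Prune2 stood at 34.0, 34.6 and 35.9 against 1.90 CPM, Tmem176a, a multi-pass membrane protein of myeloid cells, at 191, 185 and 197 against 38.3 CPM, and Kctd12 at 514, 554 and 516 against 167 CPM. Nisch (difference 1.14), Gnptg (1.40), a subunit of the enzyme that tags proteins for the lysosome, and Pogz (1.51) were also even. Kctd12 left the core with total counts only. Nisch left the core with total counts only, with the lane as a term, within lane 3, within lane 2 and without monocyte library 4. Gnptg left the core with total counts only, within lane 3 and within lane 2. Pogz left the core with total counts only and within lane 2. Within lane 2 Gnptg and Pogz also missed the threshold in the mean (edgeR adjusted p = 0.0551 and 0.0886).

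The lists below are read beside the shares among all tested genes. These were 9.63% core and 7.28% lost, with 23.9% higher and 23.3% lower in all 3 pairs. A published list of 37 genes shared by macrophages of several mouse organs was examined next, as a check of the label. Of these, 18 were core and 3 lost, with a median difference of 1.86; with total counts only, 12 were core. Core members included Mertk and the enzymes Ctsl and Ctsd. Ctsl, a lysosomal cysteine protease, stood at 1199, 954 and 909 against 47.1 CPM, a difference of 4.42 (SE 0.22, edgeR adjusted p = 1.38e-11). Cd14, the co-receptor for bacterial lipopolysaccharide, stood at 5696, 675 and 487 against 33.0 CPM. Sepp1, the selenium carrier, stood at 2655, 1790.4 and 2801 against 481 CPM. Of the 37, 23 were higher and 4 lower in all 3 pairs, and 6 passed the test in opposite directions in different pairs. The 3 lost members were Hacd4, an enzyme of fatty acid elongation (95.7, 79.1 and 55.7 against 271 CPM), Fgd4, an exchange factor for Cdc42 (36.5, 47.0 and 48.2 against 153 CPM), and Dok3, an inhibitory adaptor (15.1, 41.3 and 31.3 against 102 CPM).

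Among 29 macrophage transcription factors, 4 were core and 2 lost, near the shares among all tested genes (9.63% and 7.28%). Maf, which encodes c-Maf and restrains macrophage proliferation, was core: cornea libraries 1 to 4 held 53.1, 51.9, 104 and 97.7 CPM, retinal libraries 301, 405, 617 and 321, brain libraries 342, 568, 451 and 476 and monocyte libraries 15.0, 9.67, 8.95 and 12.8. All resident libraries were above the monocytes, with a difference of 4.38 (SE 0.29, edgeR adjusted p = 8.41e-10). Ets2 stood at 777, 22.4 and 34.5 against 3.47 CPM, with the cornea far above both microglia. Klf2 and Klf4, factors of circulating monocytes, were lost. Klf2 had 187, 274, 177 and 137 CPM in the monocyte libraries against means of 32.0, 56.1 and 8.48 CPM in cornea, retina and brain (-2.97 with SE 0.18 and edgeR adjusted p = 2.61e-10). Klf4 stood at 34.6, 5.67 and 3.65 against 78.5 CPM. Of 21 tested factors of progenitors and monocytes, 8 were lost and 2 were core (median -1.05). Nfe2 stood at 0.522, 0.598 and 0.257 against 214 CPM, Hopx at 4.68, 0.602 and 0.0181 against 105 CPM and Hmgb2, a chromatin protein of dividing cells, at 20.8, 11.3 and 7.01 against 173 CPM; Myb and Gfi1, factors of early myeloid precursors, were also lost. The exceptions were Tcf7l2, an effector of Wnt signalling (40.6, 69.1 and 103 against 2.65 CPM), and Sox4 (4.6, 53.0 and 137 against 1.17 CPM). Klf4 left the lost set within lane 2. Sox4 left the core within lane 2.

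Complement genes were more often core than lost. Of 23 tested, 10 were core and 2 lost (median 2.59). The 3 chains of C1q, which starts the classical pathway and tags synapses and debris, were all core. For C1qb, cornea libraries 1 to 4 held 3878, 4314, 3892 and 4287 CPM, retinal libraries 5826, 7057, 9856 and 5927, brain libraries 6068, 7099.9, 8109.7 and 8226 and monocyte libraries 22.9, 9.37, 2.28 and 0.781. Monocyte libraries 1 and 2 held more C1qb than 3 and 4, yet the lowest resident library was far above all of them. The difference was 9.36 (SE 0.73, edgeR adjusted p = 6.53e-09). C1qc stood at 1922, 5078 and 5128 against 5.02 CPM and C1qa at 644, 1765 and 1907 against 2.29 CPM. The receptors for the C3a and C5a fragments were core as well, with C3ar1 at 3112, 552 and 529 against 12.6 CPM and C5ar1 at 3181, 464 and 289 against 27.7 CPM. By contrast, the central component C3 was lost: cornea libraries 1 to 4 held 81.3, 84.3, 101 and 42.9 CPM, retinal libraries 2.29, 2.64, 5.17 and 3.78, brain libraries 0.0857, 0.203, 0.0992 and 0.218 and monocyte libraries 1679.9, 1726, 1722 and 1955. Its difference was -8.97 (SE 0.21, edgeR adjusted p = 2.21e-15), and the cornea libraries lay between the microglia and the monocytes. Cfb, a protease of the alternative pathway, was the other lost member at low levels (0.842, 0.119 and 0.0508 against 4.43 CPM). Cfb left the lost set within lane 3, within lane 2 and with monocyte libraries 3 and 4 alone.

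Among 22 tested genes of dying-cell uptake, 6 were core and 3 lost (Scarb1, Cd300lf and Ucp2), with a median of 0.63. Mertk, the receptor that binds dying cells through Gas6 and protein S, had 49.9 ± 13.8 CPM in cornea, 584 ± 115 in retina, 1057 ± 49.0 in brain and 2.85 ± 0.606 in monocytes. The difference was 6.76 (SE 0.25, edgeR adjusted p = 3.89e-13). Its ligand Gas6 was also core. Stab1, a scavenger receptor, stood at 638, 157 and 309 against 1.83 CPM. The integrin chains Itgb5 and Itgav stood at 166, 2246 and 2953 against 55.2 CPM and 955, 206 and 315 against 98.5 CPM. Itgb5 left the core with total counts only. Itgav left the core with monocyte libraries 3 and 4 alone and without retinal library 1 or monocyte library 1. The related receptor Axl was not a core gene, because its brain pair went the other way (3.49, 1.22 and -2.50 in cornea, retina and brain).

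Lysosomal genes were mostly higher in residents. Of 54 genes of lysosomal enzymes and membrane proteins, 32 were higher in all 3 pairs and 6 lower, and 15 met the 2-fold limit against 1 lost (median 0.88). Ctsd, the main aspartic protease of the lysosome, was among the most abundant: cornea libraries 1 to 4 held 5561, 5508, 5383 and 4025 CPM, retinal libraries 14112, 13032, 19189 and 10749.6, brain libraries 16790.1, 15688, 20687 and 17717 and monocyte libraries 554, 362, 437 and 466. Cornea libraries were below the microglia, and monocyte libraries were the lowest. The difference was 4.58 (SE 0.19, edgeR adjusted p = 2.18e-12). Lgmn, an asparagine-specific protease, stood at 1327, 2969 and 3949 against 59.3 CPM, and Ctsz at 2671, 2691 and 1742 against 589 CPM. Psap, the precursor of the saposins, went the other way (1999, 2055 and 1980.2 against 5199 CPM; -1.37 with SE 0.21 and edgeR adjusted p = 2.78e-05).

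For the 33 genes of the lysosomal proton pump and of nutrient sensing at the lysosome, 16 were higher in all 3 pairs and 4 lower, while 5 were core and 0 lost (median 0.69). The pump subunits Atp6v1c1 (1356, 194 and 184 against 86.9 CPM) and Atp6v0a1 (297, 132 and 179 against 42.2 CPM) were core, as were Slc15a3, a lysosomal peptide carrier (885, 87.6 and 84.0 against 32.0 CPM), and Flcn, which signals nutrient state (475, 157 and 181 against 76.1 CPM). Flcn left the core with the lane as a term, within lane 2, with the title tag as a block and without retinal library 4 or monocyte library 3. Atp6v1c1 left the core with monocyte libraries 3 and 4 alone and without monocyte library 2.

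The promoters of these genes are shown because many lysosomal genes carry the E-box CACGTG, which is read by the MiT/TFE factors. In the 250 bases before the gene start, on either strand, 23.3% of the 43 lysosomal enzyme and membrane genes with a promoter in the table and 28.0% of 25 pump and sensing genes held it, against 6.0% of all 27025 promoters. Among all core genes the share was 8.4% and among lost genes 6.3%, beside 8.3% of tested genes (10006 of 15754 matched by symbol). A match is a stretch of letters and was not measured as bound. The 4 core lysosomal genes with the motif included Ctsd and Ctsl, the most abundant of them. Their RefSeq sequences (GRCm38.p6, 5′ to 3′ on the gene's strand, motif in capitals) are those of chr7:142387828-142388077 and chr13:64370521-64370770, both on the minus strand.
Ctsd: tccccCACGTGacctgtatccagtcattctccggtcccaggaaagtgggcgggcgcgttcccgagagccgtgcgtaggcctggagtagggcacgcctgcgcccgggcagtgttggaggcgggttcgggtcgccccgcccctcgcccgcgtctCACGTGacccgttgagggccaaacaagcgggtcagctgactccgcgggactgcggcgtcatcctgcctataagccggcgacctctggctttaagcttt
Ctsl: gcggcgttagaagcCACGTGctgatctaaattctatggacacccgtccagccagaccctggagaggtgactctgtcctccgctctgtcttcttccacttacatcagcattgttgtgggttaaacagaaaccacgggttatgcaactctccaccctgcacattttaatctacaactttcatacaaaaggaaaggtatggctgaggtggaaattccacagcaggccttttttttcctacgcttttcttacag
The E-box of Ctsd began 245 and 98 bases before the gene start, and that of Ctsl 236 bases before it, by the RefSeq start. The GENCODE vM21 gene starts 211 bases farther upstream for Ctsd and 370 for Ctsl, so that most of the first stretch and all of the second lie inside the GENCODE gene.

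At the cell surface, 8 of 21 tested tetraspanins, membrane organisers, were core and 3 lost (median 1.93). For Cd81, cornea libraries 1 to 4 held 671, 811, 635 and 1153 CPM, retinal libraries 5470.3, 7196, 8505 and 6099, brain libraries 3835, 4680.3, 4247 and 4563 and monocyte libraries 15.0, 8.77, 3.93 and 9.66. Retinal libraries were highest and the cornea lowest among residents, and monocytes were lower still (difference 8.25 with SE 0.36 and edgeR adjusted p = 3.37e-12). Cd9 stood at 617, 1668 and 906 against 10.7 CPM and Cd63, which also lines lysosomes, at 502, 94.1 and 63.2 against 2.21 CPM. The lost members were Tspan17 (9.12, 3.31 and 1.41 against 24.4 CPM), Tspan5 (34.9, 27.6 and 24.4 against 70.0 CPM) and Tspan2 (0.126, 0.0539 and 0.0508 against 1.41 CPM). Tspan17 left the lost set within lane 3 and with monocyte libraries 3 and 4 alone. Tspan5 left the lost set with DESeq2's size factors, with DESeq2, without the filter, with a filter of 5 CPM, with the lane as a term, within lane 3, within lane 2 and without cornea library 3 or monocyte library 2 or 3. Tspan2 left the lost set with DESeq2, within lane 2, with monocyte libraries 3 and 4 alone and without cornea library 1 or 3 or monocyte library 1. In lane 2 the mean contrast of Tspan2 had an edgeR adjusted p of 0.0612. With DESeq2, with a filter of 5 CPM, within either lane and with monocyte libraries 3 and 4 alone, 1 tetraspanin was lost.

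Of 31 cytokine receptors, 9 were core and 1 lost, with a median of 0.05 that changed sign to -0.13 with total counts only. Both chains of the TGF-beta receptor were core. Tgfbr1, the signalling chain, had 777 ± 123 CPM in cornea, 1641 ± 493 in retina, 2778 ± 451 in brain and 78.9 ± 3.85 in monocytes (difference 4.27 with SE 0.21 and edgeR adjusted p = 1.54e-11). Tgfbr2, the binding chain, stood at 235, 974.9 and 950.1 against 98.7 CPM. Tgfbr2 left the core with total counts only. Il4ra (599, 267 and 259.5 against 104 CPM) and Il10rb (628, 244 and 270.5 against 100.2 CPM), which serve interleukin-4 and interleukin-10, were core as well. Flt3, the receptor of dendritic cell and lymphoid precursors, was lost (4.37, 2.06 and 1.15 against 36.4 CPM). Csf1r, the CSF1 receptor and part of the monocyte gate as CD115, was higher in each pair but missed the 2-fold limit in the cornea (0.86, 2.42 and 2.96).

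Of 29 growth and repair factors, 10 were core and 0 lost (median 3.04). Besides Sparc and Hpgds, these were Pdgfa, Pdgfb, Pdgfc, Vegfb, Hbegf, Osm, Ang and Csf1. Pdgfa, a mitogen of mesenchymal cells and oligodendrocyte precursors, stood at 341, 31.0 and 26.0 against 0.215 CPM (difference 8.31 with SE 0.43 and edgeR adjusted p = 2.63e-11). Osm, a cytokine of the interleukin-6 family, stood at 378, 19.2 and 17.6 against 4.95 CPM. Of 35 chemokines and cytokines, 6 were core and 1 lost, with a median of 3.54. Ccl4 had 4489, 4730.3, 3382 and 4895 CPM in the cornea libraries, and means of 57.6 and 23.7 in retina and brain against 2.13 in monocytes. Ccl12, a monocyte attractant, stood at 868, 223 and 45.6 against 0.135 CPM, and Cxcl16 at 2062, 99.2 and 65.6 against 2.95 CPM. The lost chemokine was Ccl6 (85.8, 317 and 132 against 1114 CPM).

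Of 23 tested genes of nucleotide sensing and breakdown, 8 were core and 2 lost (median 1.84), or 5 and 3 with total counts only. P2ry12, the ADP receptor that steers microglial processes, was core through all 3 pairs at very unequal levels: cornea libraries 1 to 4 held 56.4, 56.9, 66.2 and 101 CPM, retinal libraries 6702, 8298, 8502 and 6606, brain libraries 13062, 13951, 13839 and 14289 and monocyte libraries 4.83, 8.17, 8.13 and 6.75. Cornea libraries were well below both microglia and above every monocyte library (3.35 with SE 0.21 and edgeR adjusted p = 3.99e-10 in the cornea pair). Gpr34 stood at 71.3, 2767 and 4072 against 2.56 CPM and P2ry13 at 24.9, 1775 and 3144 against 8.16 CPM. P2ry13 left the core with total counts only and within lane 3. Entpd1 (CD39), which removes extracellular ATP, was more even, at 456, 510.4 and 925 against 44.0 CPM. The lost members were P2ry1 (1.96, 0.0201 and 0.0248 against 40.4 CPM) and Gpr65, an acid sensor (29.7, 38.3 and 7.59 against 94.8 CPM).

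A list of 20 homeostatic microglia genes had 13 core and 0 lost members (median 8.21). Cornea macrophages exceeded monocytes at least 2-fold for these 13 genes, including Tmem119 and Olfml3. Siglech, a sialic acid receptor, stood at 25.2, 1438 and 1690.2 against 0.290 CPM. Its cornea level was far below the microglial one and still above monocytes (6.19 on the log2 scale in that pair). Of 20 tested Fc receptors, Siglecs and their adaptors, 6 were core and 2 lost. Trem2, a lipid-sensing receptor of microglia, stood at 192, 984 and 963 against 29.5 CPM, and Cd33, an inhibitory Siglec, at 390.1, 231 and 303 against 20.0 CPM.

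Of 31 immediate-early and stress genes, 8 were core and 0 lost (median 1.63). For Egr1, cornea libraries 1 to 4 held 578, 887, 1067 and 1059 CPM, retinal libraries 18.0, 127, 14.4 and 146, brain libraries 28.9, 26.1, 37.9 and 28.2 and monocyte libraries 0.768, 0, 0.548 and 1.07. Cornea libraries were highest, and retinal libraries 2 and 4 exceeded retinal libraries 1 and 3. The difference was 7.60 (SE 0.79, edgeR adjusted p = 2.39e-07). Jun, a subunit of AP-1, was more even, at 447, 388 and 533 against 57.8 CPM. Socs3, an inhibitor of cytokine signalling, stood at 742, 91.9 and 36.9 against 4.76 CPM, and Ier3 at 860.4, 37.9 and 10.1 against 3.87 CPM. Per the labels' protocols, the cornea was digested with collagenase in the warm and the retina was dissociated in the cold. How brain and marrow were handled is not described there. Tissue and handling therefore cannot be told apart, for these genes or for others such as Il1a, Ccl4 and Osm.

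Matrix enzymes moved both ways, with 7 core and 5 lost of 30 tested. Timp2, an inhibitor of metalloproteases, stood at 299, 410.0 and 471 against 30.6 CPM, Mmp14, a membrane-bound protease, at 551, 47.5 and 46.7 against 0.641 CPM and Plau, the urokinase, at 514, 18.8 and 28.1 against 2.48 CPM. The lost members included Mmp8, the neutrophil collagenase (0.335, 0.258 and 0 against 294 CPM), and F10, coagulation factor X (5.62, 0.0122 and 0 against 185 CPM). Of 35 lipid genes, 6 were core and 5 lost. Abca1, which exports cholesterol, stood at 736, 108 and 348 against 6.53 CPM, and Lpcat2, which makes phosphatidylcholine and platelet-activating factor, at 283, 2051 and 2435 against 69.2 CPM. Lpl, the lipoprotein lipase (136, 80.9 and 54.2 against 452 CPM), and Plbd1, a phospholipase-like protein of granulocytes and monocytes (339, 1.1 and 0.300 against 725 CPM), were lost. In iron handling 3 of 24 were core and 0 lost, beside 9.63% and 7.28% of all tested genes. The core members included the iron exporter Slc40a1, ferroportin (130.3, 282 and 797 against 25.5 CPM), and Trf, transferrin (241, 299.6 and 357 against 84.1 CPM). Trf left the core with total counts only. Slc40a1 left the core within lane 2. Plbd1 left the lost set within lane 3 and within lane 2. The co-stimulator Cd86 was core (1796, 341 and 544 against 65.1 CPM), as were Cd80 and H2-Ob of the same list of 14 class II presentation genes, of which 0 were lost.

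**Figure D3:**
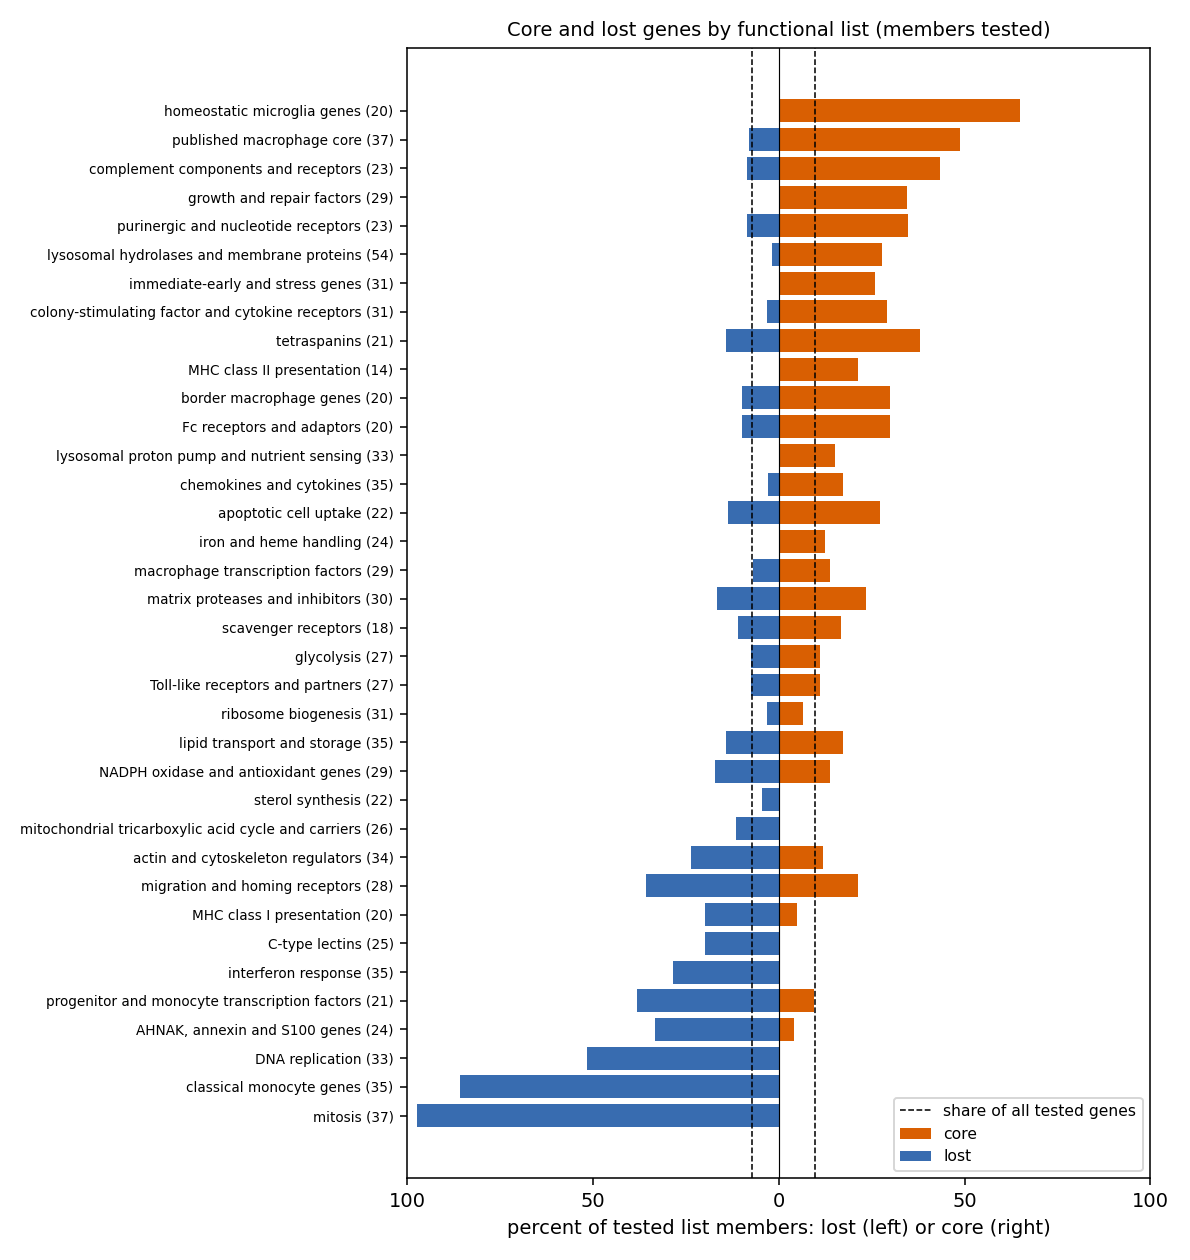
Share of the tested members of 36 functional lists that were lost (left) or core (right), in percent, with the number tested in brackets; dashed lines mark the shares among all tested genes, 7.28% lost and 9.63% core. Mitosis (36 of 37 lost) and classical monocyte genes (30 of 35 lost) stand at one end and homeostatic microglia genes (13 of 20 core) at the other.

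Glycolysis (3 core and 2 lost of 27) and Toll-like receptors and partners (3 core and 2 lost of 27) were near the shares among all tested genes. Those shares were 9.63% core and 7.28% lost. Ribosome biogenesis (2 core and 1 lost of 31) and sterol synthesis (0 core and 1 lost of 22) lay below both shares. Border macrophage genes had 6 core and 2 lost of 20, scavenger receptors 3 core and 2 lost of 18 and C-type lectins 0 core and 5 lost of 25. Core border macrophage genes were Folr2, a folate receptor, Stab1, Dab2, Maf, Igfbp4 and Ccl24, and the lost C-type lectins included Cd209a and Ly75.

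The lost set was led by genes of granulocyte-monocyte precursors and of classical monocytes. Elane, neutrophil elastase, had no count in any resident library and 233, 122, 102 and 156 CPM in the 4 monocyte libraries, at least 9644-fold lower against a floor of 3 counts over the 12 libraries. Cd177, a neutrophil surface protein, had 667, 637, 578 and 550.4 CPM in monocytes and 5 counts over all residents. Mpo, myeloperoxidase, had 590.0, 267, 298 and 358 CPM in monocytes and 2 counts in residents, a monocyte over resident ratio of 35842 (95% counting interval 9922 to 295959). Fcnb, a ficolin, and Ms4a3, a membrane protein of granulocyte-monocyte precursors, were also at 0 in residents and at least 2897-fold and 1508-fold lower. Klrb1f, a lectin-like receptor (47.0 ± 3.23 CPM in monocytes), was at least 2702-fold lower.

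Markers of granulocytes and red cells differed among monocyte libraries. Ngp, a neutrophil granule protein, had 1080.1, 489, 77.7 and 45.5 CPM in monocyte libraries 1 to 4, S100a8 743, 373, 77.6 and 31.9, Retnlg 91.7, 33.2, 3.47 and 4.05 and the haemoglobin gene Hbb-bs 1075, 704, 187 and 150.0. Libraries 1 and 2 were the highest for all 4 of these genes. Elane, Mpo and Cd177 varied less among the 4 libraries, and only Cd177 had libraries 1 and 2 highest. Mpo was lowest in library 2, and Elane was higher in library 4 than in library 2. Of 20 tested granule markers 19 were lost, and of 11 erythroid markers 8. With monocyte libraries 3 and 4 alone, 17 of 21 and 8 of 11 were lost, and the sets held 1448 core and 1006 lost genes, 1236 and 945 of them shared with the full sets. With these 2 libraries 9 named genes left their set, as given beside each. Whether granule transcripts came from monocytes themselves, from granulocytes or from free RNA was not tested.

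Promoters of this group are shown for the purine-rich site GAGGAAGT, bound by PU.1, the master factor of myeloid cells. It stood on either strand in 29.4% of the 17 granule marker promoters in the table, in 8.3% of 24 classical monocyte promoters and in 2.4% of all promoters of the same length. Over all lost genes the share was 4.5%, over core genes 2.9% and over tested genes 2.7%. Mpo (chr11:87793534-87793783, plus strand) and S100a8 (chr3:90668821-90669070, plus strand) were the most abundant of the 5 lost granule markers with a match, marked in capitals.
Mpo: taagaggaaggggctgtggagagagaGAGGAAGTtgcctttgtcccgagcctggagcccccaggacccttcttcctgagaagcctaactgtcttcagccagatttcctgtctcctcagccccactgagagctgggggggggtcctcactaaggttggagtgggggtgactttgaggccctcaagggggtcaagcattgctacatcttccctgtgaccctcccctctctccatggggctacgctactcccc
S100a8: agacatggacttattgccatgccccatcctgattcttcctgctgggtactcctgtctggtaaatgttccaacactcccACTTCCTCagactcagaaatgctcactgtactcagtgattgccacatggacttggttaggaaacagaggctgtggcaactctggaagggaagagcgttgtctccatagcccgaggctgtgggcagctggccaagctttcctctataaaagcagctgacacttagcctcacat
The site lay 224 bases before the gene start in Mpo and 172 bases before it, on the opposite strand, in S100a8, by the RefSeq start. The GENCODE gene starts 203 bases farther upstream for Mpo and 93 for S100a8.

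Of 35 classical monocyte genes, 30 were lost and 0 core, with a median of -8.83; the list also gave 30 lost with monocyte libraries 3 and 4 alone. Ly6c2 encodes Ly6C, by which monocytes were gated, so its level describes the sort: cornea libraries 1 to 4 held 0.113, 0, 0.615 and 0 CPM, retinal libraries 0.316, 0.0488, 0 and 0.564, brain libraries 0, 0.508, 0.198 and 0.435 and monocyte libraries 2663, 2335, 2445 and 2412. Chil3, a chitinase-like secreted protein, had 6234, 4024, 5052 and 6982 CPM in monocytes and means of 0.557, 0.326 and 0.787 CPM in cornea, retina and brain. Hp, haptoglobin, had 1085, 984, 1046 and 1205 CPM in monocytes and 12 counts over all residents. Fn1, fibronectin, stood at 79.7, 0.984 and 0.302 against 6817 CPM and F13a1, a coagulation factor subunit, at 771, 4.01 and 1.74 against 6386 CPM. F13a1 left the lost set within lane 2. Lyz2 encodes lysozyme: cornea libraries 1 to 4 held 13405, 12241, 14086 and 8699 CPM, retinal libraries 517, 427, 753 and 313, brain libraries 235, 251, 206 and 213 and monocyte libraries 36929.9, 34943, 35819.8 and 35324. The cornea kept much more Lyz2 than the microglia, and the cornea pair was the weakest (-1.56 with SE 0.21 and edgeR adjusted p = 5.40e-06). Serpinb10 (93.0 ± 35.3 CPM in monocytes), Galnt9 (93.8 ± 13.8), Ms4a8a (90.3 ± 7.26) and the clone entry RP23-191E1.1 (163 ± 48.2) completed the leading genes, each at most 0.104 CPM in a resident population. Ly6c1 and Ly6c2, Hba-a1 and Hba-a2, Hbb-bs and Hbb-bt, and other members of such families are close copies, and the sources used here do not say how reads were split between them.

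Homing receptors moved both ways. Of 28 tested, 10 were lost and 6 core (median -2.23). Ccr2, which calls monocytes out of the marrow, stood at 54.6, 0.718 and 5.20 against 2688 CPM (-8.83 with SE 0.16 and edgeR adjusted p = 3.88e-16). Itgb7, an integrin chain of gut homing, stood at 19.1, 1.03 and 0.510 against 1127 CPM, and its partner Itga4 and the leukocyte integrin chain Itgal were lost too. Cd47, a signal against being engulfed, was lower by a modest amount (299, 193 and 262 against 698 CPM). The core members included C5ar1, S1pr1, Itgax and the junction molecules F11r (62.3, 947 and 1155 against 1.58 CPM) and Jam2 (13.4, 206 and 259 against 0.0645 CPM).

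Of 24 annexin, S100 and related genes, 8 were lost and 1 was core. Anxa2 stood at 755, 16.0 and 0.944 against 1676 CPM, with a cornea pair of -1.15. Anxa2 left the lost set within lane 3, within lane 2 and with the title tag as a block. S100a6, a calcium sensor, stood at 117, 0.133 and 0.101 against 418 CPM, Crip1 at 133, 4.98 and 1.02 against 479 CPM and Anxa6 at 70.5, 114 and 96.9 against 379 CPM. Anxa3 was the core member (325, 639 and 505 against 153 CPM). Anxa3 left the core with total counts only, with the lane as a term, within lane 2 and with the title tag as a block. Among 34 actin and cytoskeleton regulators, 8 were lost and 4 core (median -1.14). Coro1a, which organises actin in leukocytes, had 1597, 1619.9, 1609.5 and 1531 CPM in monocytes against means of 141, 411 and 374 CPM in cornea, retina and brain (-2.51 with SE 0.16 and edgeR adjusted p = 4.10e-10). Flna, filamin A, stood at 381, 125 and 96.5 against 2447 CPM, Lsp1 at 236, 264 and 72.5 against 1620.4 CPM and Myo1f at 168, 362 and 312 against 1258 CPM. The related Myo1e went the other way (719, 53.3 and 42.0 against 1.43 CPM). Ptprc, which encodes CD45 and was a sort marker of every population, was lost as well (695, 559.7 and 396 against 1492 CPM; -1.48 with SE 0.11 and edgeR adjusted p = 1.99e-09). Ptprc left the lost set with the lane as a term, within lane 3 and within lane 2.

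Of 37 mitosis genes, 37 were lower in all 3 pairs, 36 were lost and 0 core (median -4.07). Mki67, which encodes the proliferation marker Ki-67, was not absent from residents: cornea libraries 1 to 4 held 173, 165, 202 and 70.0 CPM, retinal libraries 54.9, 38.1, 24.4 and 13.6, brain libraries 5.23, 1.93, 2.48 and 2.39 and monocyte libraries 492, 356, 419.7 and 447. Cornea libraries lay nearest to the monocytes and brain libraries lowest. The 3 pair differences were -1.49, -3.72 and -7.14 in cornea, retina and brain, and the mean difference was -4.12 (SE 0.28, edgeR adjusted p = 8.80e-10). Mki67 left the lost set within lane 2. Top2a, a topoisomerase of dividing cells, stood at 50.8, 22.6 and 1.15 against 406 CPM and Racgap1, needed to divide the cell body, at 13.9, 12.8 and 3.16 against 209 CPM. Of 33 DNA replication genes, 17 were lost and 0 core (median -2.12), among them the ribonucleotide reductase subunits Rrm1 (28.8, 32.6 and 45.5 against 159 CPM) and Rrm2 (10.2, 14.4 and 0.746 against 154 CPM), the helicase subunit Mcm6 (41.9, 29.5 and 22.7 against 147 CPM) and the maintenance methyltransferase Dnmt1 (28.1, 22.5 and 36.7 against 195 CPM).

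Promoters of mitotic genes are shown for the CCAAT box, which is read by NF-Y. It stood on either strand in 83.9% of the 31 mitosis promoters and in 57.1% of 28 replication promoters, against 34.5% of all promoters. Lost genes as a whole had 41.2%, core genes 33.7% and tested genes 36.6%. The cell cycle element TTTGAA (either strand) was found in 32.3% of mitosis, 14.3% of replication, 29.2% of classical monocyte, 10.7% of tested-gene and 16.3% of all promoters. Mki67 (chr7:135716380-135716629, minus strand) and Top2a (chr11:99024190-99024439, minus strand) were the most abundant of the 25 lost mitosis genes with a CCAAT box, marked in capitals on either strand.
Mki67: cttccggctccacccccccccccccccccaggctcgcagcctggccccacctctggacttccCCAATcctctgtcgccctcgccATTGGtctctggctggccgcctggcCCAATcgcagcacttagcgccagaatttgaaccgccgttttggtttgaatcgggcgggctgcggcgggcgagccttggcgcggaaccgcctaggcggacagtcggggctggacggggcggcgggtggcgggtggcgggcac
Top2a: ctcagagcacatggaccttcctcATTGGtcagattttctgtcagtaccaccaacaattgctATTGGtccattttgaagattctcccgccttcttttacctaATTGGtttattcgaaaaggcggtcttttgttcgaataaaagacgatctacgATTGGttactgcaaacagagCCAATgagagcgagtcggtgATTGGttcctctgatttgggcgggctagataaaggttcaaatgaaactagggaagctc
Mki67 held 3 such boxes and Top2a 6.

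Of 35 interferon response genes, 21 were lower in all 3 pairs and 0 higher, and 10 were lost and 0 core (median -2.02). With total counts only 16 were lost. With DESeq2's size factors, with DESeq2 and with a filter of 5 CPM 8 were lost. A log2 limit of 2 in each pair left 2 lost. Ifitm3 encodes a membrane protein that blocks viral entry: cornea libraries 1 to 4 held 338, 340.0, 323 and 326 CPM, retinal libraries 24.8, 17.2, 38.8 and 15.2, brain libraries 3.34, 6.71, 6.15 and 5.22 and monocyte libraries 1361, 1435, 1026 and 857. All resident libraries lay below all monocyte libraries, and the pair differences were -1.82, -5.61 and -7.78. Ifi27l2a stood at 181, 30.6 and 4.13 against 417 CPM and Irf7 at 201, 38.6 and 7.78 against 402 CPM. Irf7 met the 2-fold limit narrowly in the cornea pair. Irf7 left the lost set with DESeq2's size factors, with DESeq2, without the filter, with a filter of 5 CPM, with the lane as a term, within lane 3, without the 3 libraries lacking the letter b, with libraries of a shared title number summed, with monocyte libraries 3 and 4 alone and without cornea library 1 or 3 or monocyte library 2. Ifi27l2a left the lost set with monocyte libraries 3 and 4 alone. A tandem GAAA motif of interferon-responsive promoters (2 copies with 2 bases between, either strand) stood in 53.8% of the 26 list promoters, in 3.0% of all promoters, in 5.0% of lost and in 2.2% of core promoters. Of 20 genes of class I presentation, 4 were lost and 1 was core. The lost members were the immunoproteasome subunits Psmb8 (61.9, 139.8 and 115 against 303 CPM) and Psmb9 (12.5, 34.5 and 30.3 against 74.9 CPM), the peptide transporter subunit Tap1 (53.1, 85.4 and 65.6 against 247 CPM) and the class I-like gene H2-T22 (25.5, 31.0 and 23.1 against 123 CPM), which has close copies. Mr1, which presents vitamin B metabolites, was core (6.12, 28.9 and 36.3 against 2.71 CPM). Mr1 left the core with total counts only, within lane 2 and without cornea library 4 or monocyte library 3 or 4. Psmb9 left the lost set with monocyte libraries 3 and 4 alone.

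Of 29 oxidase and antioxidant genes, 5 were lost and 4 core (median -0.54). Gpx1, a glutathione peroxidase, had 3141 ± 605 CPM in monocytes against 465 ± 99.0 in cornea, 604 ± 236 in retina and 403 ± 114 in brain (-2.70 with SE 0.19 and edgeR adjusted p = 1.99e-09). Gsr, which recycles glutathione, stood at 315, 39.2 and 34.8 against 917 CPM, Mgst1, a membrane glutathione transferase, at 14.9, 0.499 and 0.0508 against 509 CPM, and Rac2, a switch of the phagocyte oxidase, at 294, 213 and 208 against 885 CPM. The metallothionein Mt1 went the other way (3809.6, 25.1 and 22.6 against 3.37 CPM). Of 26 genes of the tricarboxylic acid cycle and mitochondrial carriers, 16 were lower in all 3 pairs and 0 higher, but 3 met the 2-fold limit: Idh1 (110.4, 50.4 and 63.3 against 698 CPM), citrate synthase Cs (60.0, 83.1 and 87.5 against 179 CPM) and Pdha1 (45.6, 51.8 and 62.1 against 127 CPM). Cs left the lost set with total counts only, with DESeq2's size factors, with DESeq2, with a filter of 5 CPM, within lane 2 and without brain library 1 or 3 or monocyte library 2. Pdha1 left the lost set with DESeq2's size factors, with DESeq2, with a filter of 5 CPM, with the lane as a term and without brain library 2. Of the list, 1 gene was lost with DESeq2's size factors, with DESeq2 and with a filter of 5 CPM.

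**Figure D4:**
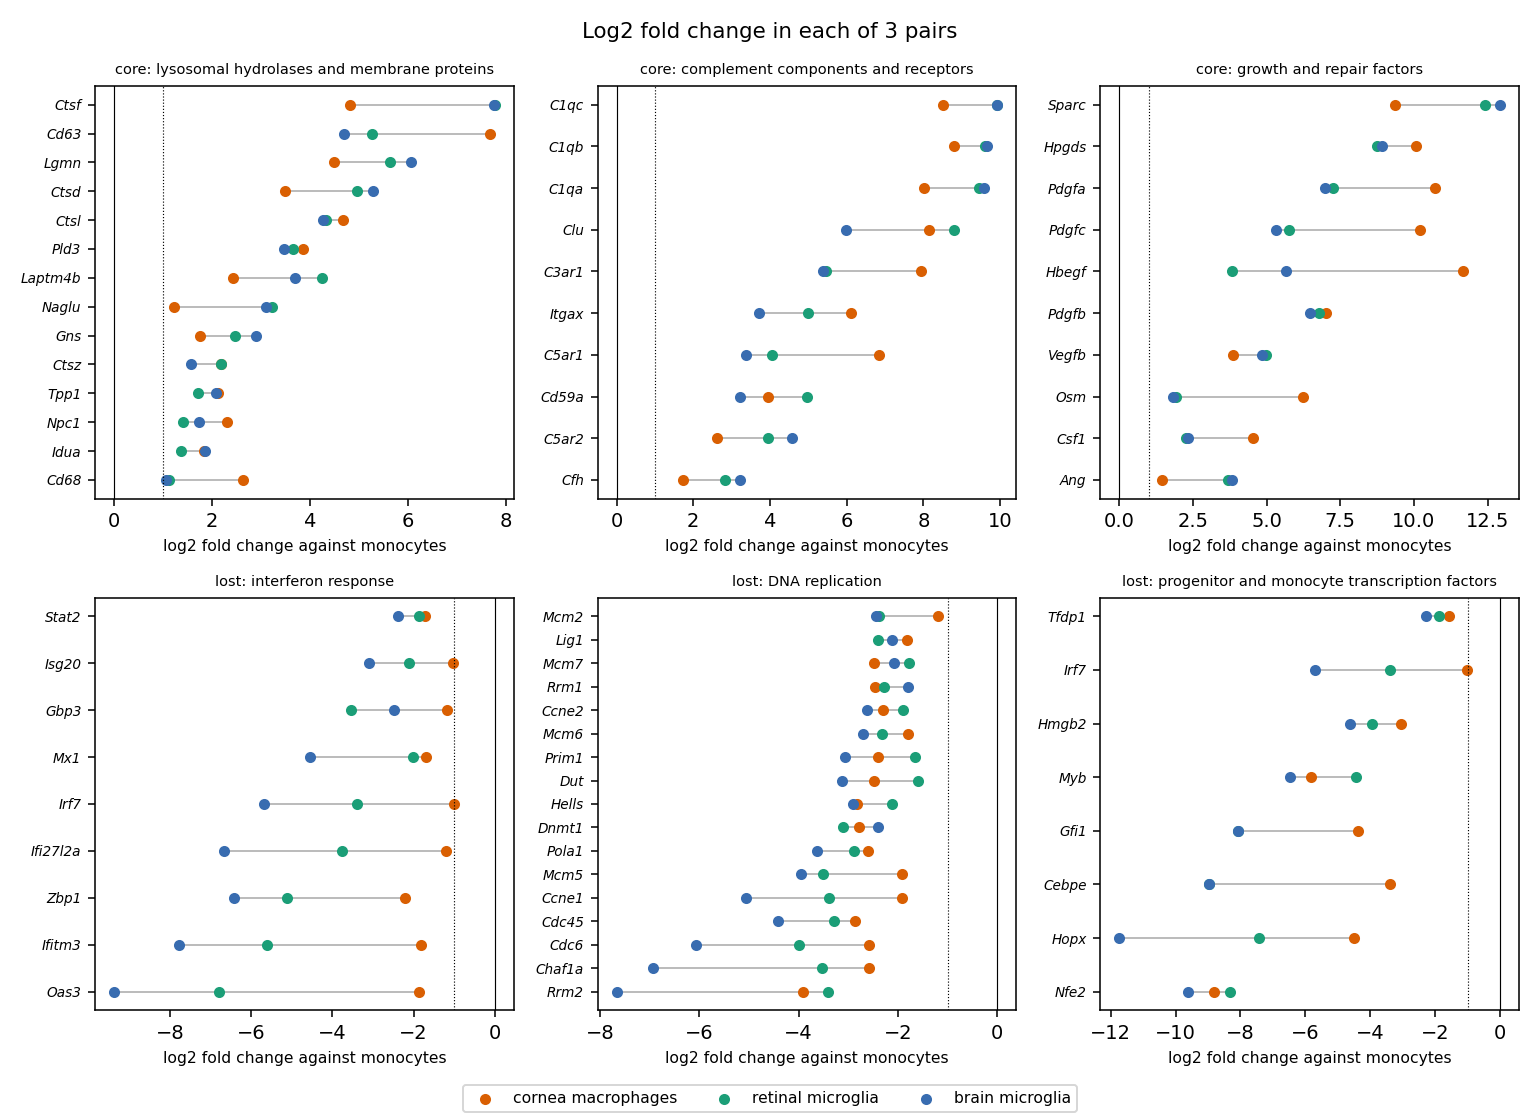
Log2 fold change against monocytes of core members (top) and lost members (bottom) of 6 lists, with 1 point per resident population; the solid line marks 0 and the dotted line the 2-fold limit. Points that coincide hide each other, and values of genes with a group at 0 counts depend on the fit. Cornea points are often nearest to 0 among lost interferon genes and farthest from 0 among C3ar1, C5ar1, Pdgfa, Hbegf and Osm.

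The requirement of 1 direction in all pairs removed 864 of the genes called higher in the mean and 1005 of those called lower. Of these, 296 and 360 had a pair that passed the test in the opposite direction. A further 1211 genes were not called in the mean while pairs passed in both directions. Axl, with the pair values given above, was one of the genes removed. H2-Ab1, an MHC class II chain, stood at 2710.4, 72.9 and 10.1 against 79.7 CPM, Selplg, a selectin ligand, at 158, 5055 and 5825 against 789 CPM and Gcnt1, which extends its sugars, at 14.4, 377 and 479 against 81.7 CPM. In the lower direction, Slamf7, an adhesion receptor, stood at 781, 1.75 and 0.101 against 10.8 CPM, Clec4e, a receptor for mycobacterial glycolipid, at 1648, 2.31 and 0.0429 against 25.1 CPM, and Pltp, a phospholipid transfer protein, at 542, 0.830 and 1.68 against 18.5 CPM. Selplg and Gcnt1 were below monocytes in the cornea alone, and Slamf7, Clec4e, Pltp and H2-Ab1 were above monocytes in the cornea alone.

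At the 2-fold limit, membership turned on small differences, given here for the cornea, retina and brain pairs on the log2 scale. Just inside the core were Kdsr (1.003, 1.240 and 1.388), Abhd12 (1.022, 3.435 and 3.645) and Lpxn (2.800, 1.025 and 1.202), and just outside Grn, the progranulin gene (0.999, 1.262 and 1.208), Elmo1 (0.995, 1.355 and 1.997) and the lysosomal cystine carrier Ctns (2.654, 0.994 and 1.413). Just inside the lost set were Eif2a (-1.131, -1.002 and -1.047), Irf7 (-1.002, -3.380 and -5.694) and Pik3cd (-3.869, -1.347 and -1.003), and just outside H13 (-0.999, -1.028 and -1.007), Eif4b (-0.999, -1.024 and -1.028) and Mpnd (-1.631, -0.997 and -1.788). Kdsr left the core with total counts only, with the lane as a term, within lane 3, within lane 2, without the 3 libraries lacking the letter b and without cornea library 1 or 3, any retinal library, any brain library or monocyte library 2 or 4. Abhd12 left the core with total counts only, within lane 3 and without cornea library 2 or monocyte library 1 or 3. Lpxn left the core with the lane as a term, without the 3 libraries lacking the letter b, with monocyte libraries 3 and 4 alone and without retinal library 1 or 2 or monocyte library 2. Eif2a left the lost set with total counts only, with DESeq2's size factors, with DESeq2, without the filter, with a filter of 5 CPM, with the lane as a term, within lane 2, with the title tag as a block and without any cornea library, retinal library 2 or 4, brain library 2 or 3 or monocyte library 4. Pik3cd left the lost set with DESeq2's size factors, with DESeq2, without the filter, with a filter of 5 CPM, with the lane as a term, without the 3 libraries lacking the letter b, with libraries of a shared title number summed and without any cornea library, brain library 1 or 3 or monocyte library 2 or 3.

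Core genes without any monocyte count, ranked by their level pooled over residents, were led by genes that the cornea held at low levels. Lrrc3 stood at 0.390, 333 and 298 CPM in cornea, retina and brain and Tspan7, a tetraspanin, at 1.36, 172 and 239 CPM; against a monocyte floor of 3 counts over 4 libraries, Lrrc3 was at least 6.67-, 6422- and 5737-fold higher in these populations and Tspan7 at least 25.1-, 3289- and 4569.7-fold. Lrrc3 left the core within lane 3. Spint1, an inhibitor of surface proteases, stood at 6.99, 164 and 142 CPM (at least 119-, 3130.2- and 2727-fold), Sgce, a sarcoglycan, at 7.42, 129 and 166 CPM (at least 148-, 2476- and 3153-fold) and the tight junction protein Tjp1 at 7.39, 90.5 and 176 CPM (at least 136-, 1675- and 3384-fold). For these 5 genes the microglia carried most of the pooled level by which they were ranked. Ctla2b, a protease inhibitor-like gene, was highest in the cornea (164, 28.3 and 9.61 CPM, at least 3129-, 535- and 182-fold).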

How the data were processed

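The deposited table holds raw counts per gene, made by the authors, for 16 libraries and 45664 gene entries. Per the submitters' processing notes, CASAVA 1.8.2, Subread, featureCounts, limma and build GRCm38.p4 were used, in an order that is not given. The sources used here give no annotation release or multi-mapping rule, and their extraction text describes another experiment, so kit and strand setting are uncertain. The deposited gene length column was not used. Libraries were grouped by source. The 27 entries whose symbols had become dates (at most 0.223% of a library) were kept as entries.

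Entries passing filterByExpr by population (minimum count 10) were fitted together in edgeR 4.0.16 (R 4.3.3, limma 3.58.1) with TMM factors and population as the only term; the mean of 3 residents and each pair were tested against monocytes with the quasi-likelihood test, Benjamini-Hochberg adjusted. The fit was also run on simulated data in which a changed gene had the same change in every resident library. That run does not bear on unequal resident levels or on lanes, and its outcome is not used here. Standard errors (SE) were derived from the F statistic of each contrast and its log2 value. Lanes come from the column headers. The members and lists (51 lists) were chosen with earlier results of these data known. Named genes were the 15 core and 15 lost genes with the largest weakest pair (at least 20 CPM, no overlap), up to 4 core, 4 lost and 1 opposite member per list, the most even core genes, those at the limit, those at 0 in the other side, and those with opposite pairs; Ngp, S100a8, Hbb-bs and lists of other members without values were named after their values were seen. Gene positions are from GENCODE vM21 and promoters from RefSeq (GRCm38.p6), matched by symbol; for the 4163 of 27025 genes with several starts the most upstream one was used, a rule set after values were seen. Some genes that these rules name are not reported here. Alternatives included DESeq2 1.42.0. Floors are 3 counts over a group; intervals and floors cover counting error only. No 2 libraries of a population were copies (chi-square per degree of freedom 11.1 to 104).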

Additional observations from a re-analysis of the deposited data

Results flagged for a closer look

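Among 28 of the leading core and lost genes, 21 of 112 groups of 4 libraries had 1 library apart from the other 3. The gap exceeded Dixon's critical value for the group's range. Chance flags about 1 in 20 groups of normally distributed values. A group with counts in a single library is always flagged, so the number of flags cannot be set against that rate. In the cornea these were Pmp22 in library 2 (lowest, 1713 CPM), Cd177 in library 4 (highest, 0.199 CPM) and Hp in library 4 (highest, 0.0664 CPM). In the retina they were Hpgds in library 3 (highest, 515 CPM), Mmp2 in library 4 (lowest, 46.2 CPM), Hp in library 1 (highest, 0.394 CPM), Chil3 in library 1 (highest, 1.26 CPM), Serpinb10 in library 4 (highest, 0.0403 CPM), RP23-191E1.1 in library 1 (highest, 0.0789 CPM) and Galnt9 in library 1 (highest, 0.394 CPM). Brain libraries gave Mmp2 in library 3 (lowest, 62.9 CPM), RP23-191E1.1 in library 2 (highest, 0.305 CPM), Galnt9 in library 4 (highest, 0.0725 CPM) and Ms4a8a in library 4 (highest, 0.0725 CPM). Among monocyte libraries they were Pmp22 in library 1 (highest, 0.632 CPM), S1pr1 in library 2 (highest, 0.199 CPM), Sparc in library 4 (lowest, 0.142 CPM), Hpgds in library 1 (highest, 2.89 CPM), Klrb1f in library 2 (lowest, 42.2 CPM), Serpinb10 in library 4 (highest, 146 CPM) and Galnt9 in library 4 (lowest, 73.1 CPM).

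For 11 of the same 28 genes the change against monocytes differed between the cornea and the mean of both microglia, by edgeR's test of that difference (adjusted p under 0.05 over all genes). The log2 change was larger in the cornea for Pmp22 (1.82), Il1a (4.32), Rnf180 (1.34), S1pr1 (1.09), Basp1 (1.43) and Hpgds (1.23), and that of the lost gene Ms4a8a was closer to 0 there (2.49). It was smaller in the cornea for Pmepa1 (-0.79), Sparc (-3.30), Bhlhe41 (-1.69) and C1qc (-1.41).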

How the results depend on the processing

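With a log2 limit of 2 in each pair 1013 genes were core and 567 lost, and with no fold limit (chosen after seeing the data) 2061 and 2019. Within lane 2 (also chosen after seeing the data) 4941 genes were called, 2172 higher and 2366 lower in every pair; fewer libraries entered. Under the other settings run, all 5 counts stayed within 1.5 times. The fits within a lane asked for 2 pairs, not 3. Leaving out 1 library gave 1459 to 1601 core and 1073 to 1180 lost genes. The share of higher among called genes was 49.8%, and 41.1% with total counts only. Of 176 named core or lost genes, 15 left their set with total counts only, 11 with the lane as a term, 13 within lane 3, 20 within lane 2, 4 without the 3 libraries lacking the letter b, and 2 with libraries of a shared title number summed, and 9 with monocyte libraries 3 and 4 alone (chosen after seeing the data); the cause was not tested. No named gene called in the mean reversed under any setting run. DESeq2 gave 1670 core and 1056 lost genes, and no adjusted p for C1qb, Hpgds and F13a1. Titles of brain and monocyte libraries 3 and 4 share tags. Deviations of the tagged libraries had correlations of -0.011 and 0.037, inside the range of untagged pairs (-0.055 to 0.067). With 2 tagged pairs this cannot tell a pairing from none, and the main fit did not use the tags. With the tag as a replicate block 8720 genes were called, 1458 core and 1116 lost. Counts near 0 limit folds of genes absent from 1 side to lower bounds.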
